A study of Homo sapiens with 20 samples.

Results

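The transcripts of the RNA polymerase I and III machinery were followed in HT29 and SW480 cells after silencing by siRNA of POLR1D, a subunit that both enzymes contain. The 41 genes were chosen by name for their role in these enzymes, out of 36346 gene names in the data. They comprised 6 subunits found in RNA polymerase I alone, 2 subunits shared by RNA polymerases I and III (POLR1C and POLR1D), and 5 subunits shared by RNA polymerases I, II and III. They further comprised 10 subunits of RNA polymerase III, 7 initiation and termination factors of RNA polymerase I, 10 factors of RNA polymerase III and its repressor MAF1. All 41 were listed under these names, all passed the filter on low values in both cell lines.

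RNA polymerase I transcribes the repeated ribosomal DNA into the precursor of the large ribosomal RNAs, and RNA polymerase III makes the 5S ribosomal RNA, the transfer RNAs and other short RNAs. POLR1C and POLR1D form a heterodimer around which both enzymes are assembled. The output of both enzymes sets the rate at which a cell can build ribosomes, and it is often raised in tumor cells. The comparison asks whether the transcripts of the partner subunits and factors changed when POLR1D was reduced.

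HT29 and SW480 are established lines of colorectal cancer. The study chose them as models in which the 13q12.2 region, where POLR1D lies, is present in extra copies. RNA was taken 72 h after transfection from cells that received a negative-control siRNA (SCR), siPOLR1D-2 or siPOLR1D-3, and libraries were enriched for exonic sequence. HT29 had 4 SCR libraries and 2 for each siRNA, and SW480 had 6 SCR libraries and 3 for each siRNA. No untransfected cells were analysed here, and the labels do not say whether replicates came from separate cultures, so that p values measure only the spread between these libraries.

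Values are read counts normalized within each cell line, so levels are compared within a line. The reads of a library, estimated from the value that 1 read took, lay between 13500000 and 22800000 in HT29 and between 18700000 and 27600000 in SW480. Of 10 epithelial marker genes, 9 in HT29 and 7 in SW480 reached a normalized read count of 10 in every library. The SW480 libraries fell on 2 sides of the first principal component of all genes, which held 42% of the variance. SCR 1 to 3 and siPOLR1D-2 1 and 2 were on the first side, whereas SCR 4 to 6, siPOLR1D-2 3 and siPOLR1D-3 1 to 3 were on the second. Because siPOLR1D-3 was found on the second side alone, side and siRNA are partly confounded, and values on each side are given where a call depends on it. In HT29, SCR 1 stood apart from the other libraries. The epithelial markers KRT20 and KRT19 rose in SW480 with silencing, by 2.74 and 0.70 on the log2 scale (adjusted p = 0.00698 and 0.0226, limma). Summed markers of fibroblasts were at 18.3 to 26.6 in SCR and 25.3 to 84.3 in silenced libraries of HT29. In SW480 they were at 110 to 1146 in SCR and 111 to 1077 in silenced libraries. Summed haematopoietic markers were at 52.3 to 144 in SCR and 61.2 to 793 in silenced libraries of SW480. In HT29 the summed haematopoietic markers were at 22213 to 32436 in SCR and 24527 to 32230 in silenced libraries. Of the 5 haematopoietic genes, 2 in HT29 and 1 in SW480 reached 10 in every library. The sums can therefore rest on few genes, and they are not split by gene here. The part of all these markers in the results below was not tested.

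In SW480, 7 of the 41 members passed an adjusted p of 0.05 (limma, both siRNAs together against SCR), where 6.73% of the 15019 genes tested did. POLR1D, the target of the siRNAs, is counted as a member in this and all later counts. The transcripts of POLR3E, CD3EAP, UBTF, POLR1A and BRF1 rose by between 1.34-fold and 1.60-fold. POLR1D itself and POLR3D fell. The other 34 members did not pass, and the median difference of the 41 members was 0.011 on the log2 scale, beside 0.013 for all genes. At an unadjusted p of 0.05, 9 members were higher and 4 lower, 13 of 41, where 23.2% of all genes were under that p. In HT29, no member passed (0 of 41, with 0% of 13274 genes), and 4 members were at an unadjusted p under 0.05, as were 10.7% of all genes. The number of members called in SW480 depended on single libraries. It was 3 without SCR 3, SCR 6, siPOLR1D-3 1 or siPOLR1D-3 3, it was 4 without SCR 4 or siPOLR1D-3 2, and it was 10 without SCR 1. The share of all genes called in each of these fits is not given here, so these counts are not set against all genes. POLR1D, POLR3E and POLR1A were called in each of these 12 fits.

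**Figure D1:**
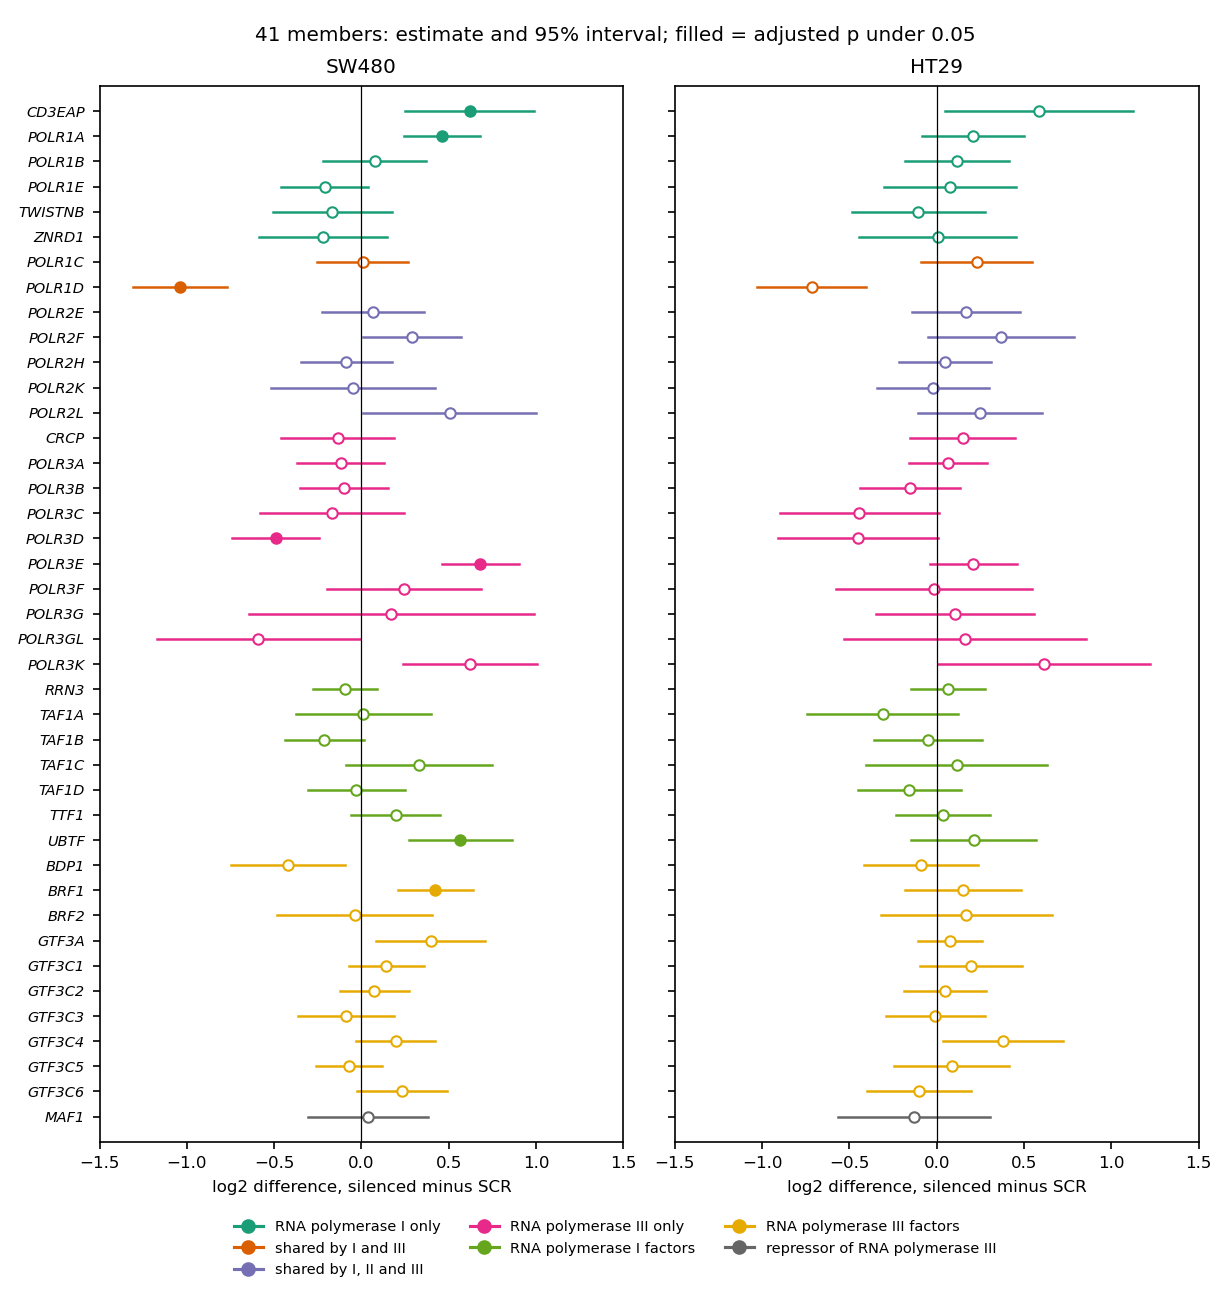
Log2 difference between silenced and SCR libraries for each of the 41 members, by role (colour), in SW480 (left) and HT29 (right). Points are estimates, lines are 95% intervals and filled points passed an adjusted p of 0.05. In SW480, 5 filled points lie above 0 and 2 below, and in HT29 no point is filled.

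POLR1D (chr13:27620742-27744237, plus strand, GRCh38) was reduced in both cell lines, which checks the labels. In SW480, the SCR libraries had a normalized read count between 1829 and 2599, with a median of 2030.3. The siPOLR1D-2 libraries had 1336, 913 and 972, and the siPOLR1D-3 libraries had 843, 1174 and 981. The silenced libraries were all below the SCR libraries, by 2.05-fold (log2 difference -1.04 ± 0.13 SE, adjusted p = 0.000991, exact permutation p = 0.00216, the smallest that 6 against 6 libraries can give). In HT29, the 4 SCR libraries had 6036, 4711, 4433 and 5009.6. Those with siPOLR1D-2 had 3414 and 3492, and those with siPOLR1D-3 had 2858 and 2549.6. Again no library overlapped, yet the difference of -0.72 ± 0.14 did not pass the adjustment over all genes (adjusted p = 0.355, exact permutation p = 0.0286, the smallest that 4 against 4 can give).

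POLR1C, with which the POLR1D protein pairs in both enzymes, did not pass in either line. In SW480, its SCR libraries lay between 980.5 and 1291, with a median of 1126. Those with siPOLR1D-2 had 1268, 1266 and 1242, and those with siPOLR1D-3 had 874, 933 and 1238. The pooled log2 difference was 0.0068, with a 95% interval from -0.25 to 0.27 (adjusted p = 0.982). Its sign turned when any of 6 of the 12 libraries was left out, over a range from -0.031 to 0.079. In HT29, SCR libraries had 1033, 855, 969 and 747, against 1245 and 904 with siPOLR1D-2 and 1041 and 1025 with siPOLR1D-3, a difference of 0.23 (95% interval from -0.088 to 0.54, adjusted p = 0.556). POLR1C shares exonic bases with XPO5, YIPF3 and LRRC73 on the opposite strand, and the use of strand in counting is not given in the sources used here. In all, 24 members share exonic bases with another gene, 22 of them with one on the opposite strand, and their reads could be split or shared.

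Of the 6 subunits of RNA polymerase I alone, 2 rose in SW480, where 6.73% of all genes passed. Counts within a role, here and below, cover few genes and are not a result about the role. POLR1A (chr2:86020216-86106155, minus strand) encodes the largest subunit, which holds the catalytic site. Its SCR libraries ranged from 2584 to 3279.9 with a median of 2883. Libraries with siPOLR1D-2 had 3588, 3513 and 4519, and those with siPOLR1D-3 had 4578, 3645 and 4365. All 6 silenced libraries lay above all 6 SCR libraries, at a log2 difference of 0.46 ± 0.10 (adjusted p = 0.0194, exact permutation p = 0.00216). The difference was 0.56 on the second side of the SW480 libraries (adjusted p = 0.014) and 0.28 on the first (adjusted p = 0.618), where no gene passed. In HT29, POLR1A had 2059, 2111, 2294 and 2134 in SCR, 3176 and 2142 with siPOLR1D-2, and 2264 and 2462 with siPOLR1D-3. These groups overlapped, at a difference of 0.21 (95% interval from -0.085 to 0.50).

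CD3EAP (chr19:45406209-45410766, plus strand), also known as POLR1G, encodes a subunit of the heterodimer with POLR1E that is particular to RNA polymerase I. In SW480, it was at 439 to 929 in SCR with a median of 546, at 1109, 879.9 and 967 with siPOLR1D-2, and at 863, 743 and 838 with siPOLR1D-3. Of the SCR libraries, SCR 1 alone reached the silenced libraries. The log2 difference was 0.62 ± 0.17 (adjusted p = 0.0462, exact permutation p = 0.0108). With 1 library left out, the call was kept without SCR 1 (0.76, adjusted p = 0.00772) and lost without any of the other 11, at adjusted p between 0.0534 and 0.1. The difference was 0.74 on the second side (adjusted p = 0.00921) and 0.57 on the first (adjusted p = 0.574), where no gene passed. In HT29, CD3EAP was at 583, 896, 1302 and 988 in SCR, 1873 and 1224 with siPOLR1D-2, and 1175 and 1264 with siPOLR1D-3. The difference of 0.58 ± 0.24 was at an unadjusted p of 0.0366 by limma (adjusted p = 0.449), and it was 0.37 without SCR 1. CD3EAP shares 1593 of its 3661 exonic bases with ERCC1 on the opposite strand, which differed by -0.38 in SW480 (adjusted p = 0.245) and by 0.11 in HT29 (adjusted p = 0.805).

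POLR1B, the second-largest subunit, POLR1E, TWISTNB and ZNRD1 did not pass in SW480, with log2 differences between -0.22 and 0.076. ZNRD1 was listed 8 times, and its values are sums.

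**Figure D2:**
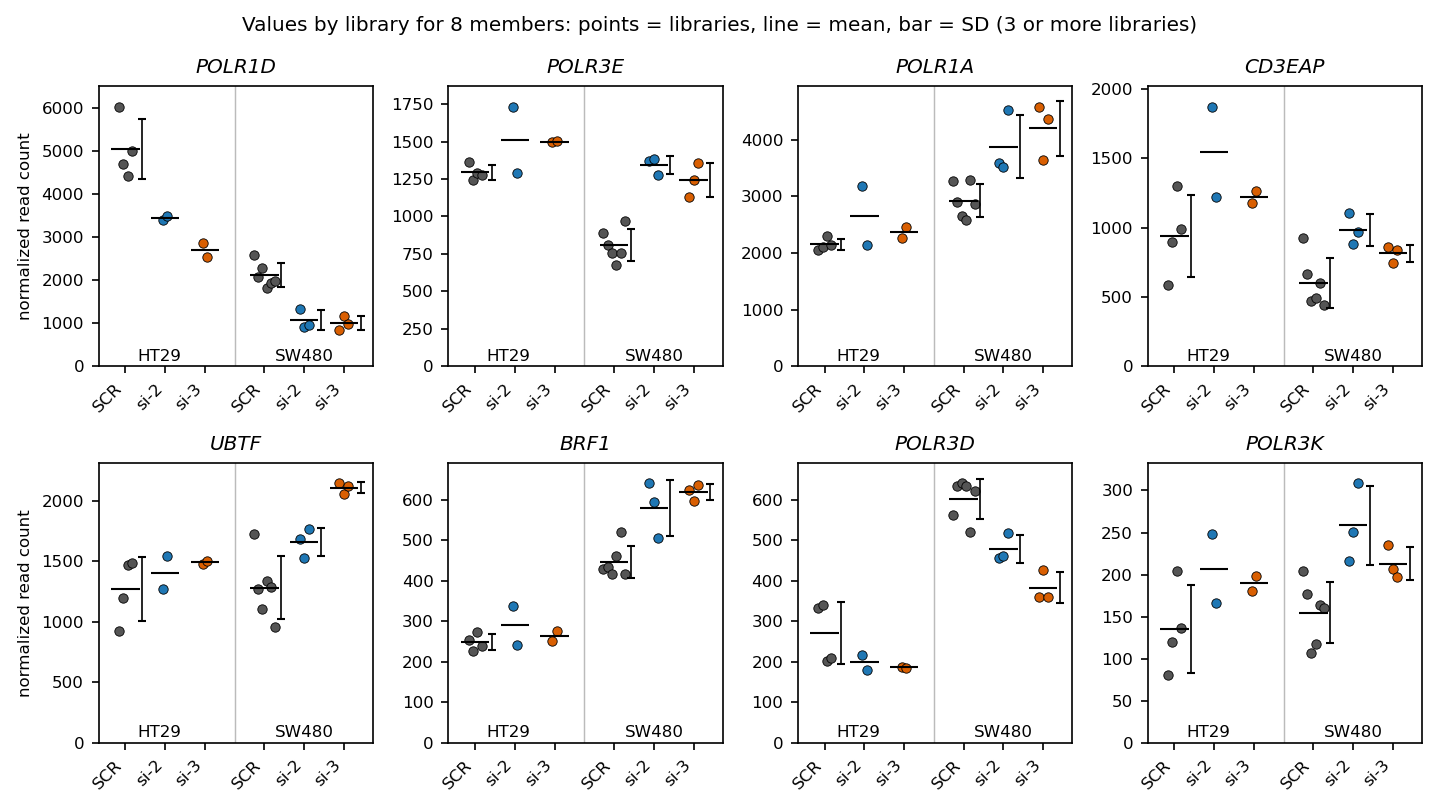
Normalized read count of 8 members in every library, on an axis from 0, for SCR, siPOLR1D-2 (si-2) and siPOLR1D-3 (si-3) in HT29 and SW480. Points are libraries, horizontal lines are means and bars are SD where a group has at least 3 libraries. In SW480, POLR3E and POLR1A lie above and POLR1D and POLR3D below all SCR libraries.

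Among the 10 subunits of RNA polymerase III, 1 rose and 1 fell in SW480, where 6.73% of all genes passed. POLR3E and POLR3D encode the pair of subunits that form a TFIIF-like heterodimer on the enzyme, and they moved in opposite directions. POLR3E (chr16:22297375-22335103, plus strand), listed as a pair of equal rows that were summed, was at 679 to 970.2 in SCR, with a median of 784. It was at 1373, 1381 and 1275 with siPOLR1D-2 and at 1129, 1245 and 1359.7 with siPOLR1D-3. No silenced library overlapped an SCR library, and the rise was 1.60-fold (0.68 ± 0.10, adjusted p = 0.00326, exact permutation p = 0.00216). POLR3E had the largest rise among the members called. Its difference was 0.75 among the libraries of the first side (unadjusted p = 0.00297 by limma, adjusted p = 0.289) and 0.66 among those of the second (adjusted p = 0.0133). It was 0.74 with siPOLR1D-2 (adjusted p = 0.00402) and 0.62 with siPOLR1D-3 (adjusted p = 0.0122), the second of which was lost without any of the siPOLR1D-3 libraries (adjusted p between 0.0510 and 0.0859). The difference between the siRNAs was -0.11, with a 95% interval from -0.42 to 0.19.

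POLR3D was at 519 to 640.3 in SCR, with a median of 627. It was at 455, 461 and 518 with siPOLR1D-2, and at 361, 426 and 360.1 with siPOLR1D-3. The highest silenced library and the lowest SCR library, at 518.5 and 518.9, nearly touched. The log2 difference was -0.49 ± 0.12 (adjusted p = 0.0255, exact permutation p = 0.00216). The call was lost without SCR 3, SCR 4, SCR 6, siPOLR1D-3 1 or siPOLR1D-3 3 (adjusted p between 0.0545 and 0.0592). It was -0.51 on the second side (adjusted p = 0.0589) and -0.41 on the first (unadjusted p = 0.0631 by limma). In HT29, POLR3D had 332, 340.3, 201 and 209 in SCR, 216 and 181 with siPOLR1D-2, and 188 and 184 with siPOLR1D-3. The estimate there was -0.45 ± 0.20 (unadjusted p = 0.0525 by limma, adjusted p = 0.472), with 1 silenced library above the lowest SCR libraries.

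POLR3K, a small subunit with a role in termination, was at 107 to 204 in SCR in SW480, with a median of 162. It was at 216, 251 and 309 with siPOLR1D-2 and at 236, 206 and 197 with siPOLR1D-3. Of the silenced libraries, siPOLR1D-3 3 alone fell below the highest SCR library, and the difference of 0.62 ± 0.18 missed the threshold (adjusted p = 0.0538, exact permutation p = 0.00433) but passed without SCR 1 (0.71, adjusted p = 0.0283). In HT29, POLR3K was at 80.1, 119, 204 and 137 in SCR, at 249 and 166 with siPOLR1D-2, and at 181 and 198 with siPOLR1D-3. The estimate was again 0.61 ± 0.27 (unadjusted p = 0.0487 by limma, adjusted p = 0.462), and 0.39 without SCR 1. SNRNP25, which shares 153 exonic bases with POLR3K on the opposite strand, was at 0.30 in SW480 (adjusted p = 0.556) and at 0.73 with siPOLR1D-2 (adjusted p = 0.119). POLR3A and POLR3B, the subunits that form the catalytic core, did not pass, with log2 differences of -0.12 and -0.0997 in SW480.

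POLR3G and POLR3GL are alternative forms of 1 subunit, POLR3G being the form of stem and tumor cells. In SW480, no other members differed as much between SCR 1 to 3 and SCR 4 to 6. POLR3G was at 479, 687 and 491 in SCR 1 to 3 but at 178, 195 and 265 in SCR 4 to 6, and POLR3GL was at 721, 843 and 1158 against 568, 498 and 433. These sides were found from the same values, so that this is a description with no test. Neither passed with silencing in SW480, at 0.17 (95% interval from -0.64 to 0.99) and -0.59 (95% interval from -1.17 to -0.010, adjusted p = 0.208).

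**Figure D3:**
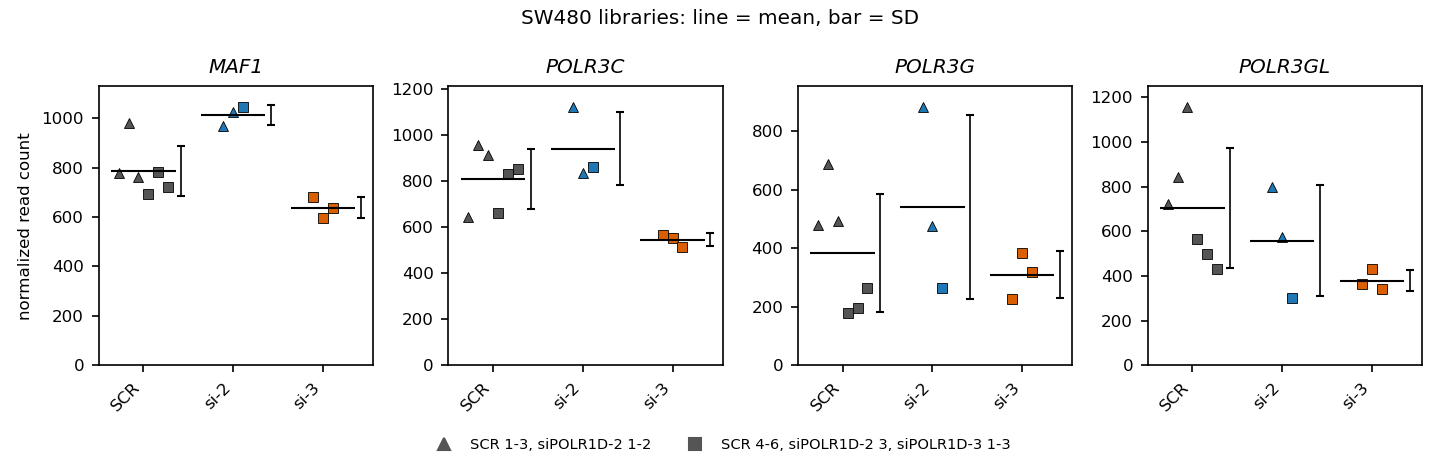
Normalized read count of MAF1, POLR3C, POLR3G and POLR3GL in the 12 SW480 libraries, on an axis from 0. Triangles are libraries of the first side and squares of the second, lines are means and bars SD, and POLR3G and POLR3GL are higher in SCR 1 to 3 than in SCR 4 to 6, whereas MAF1 and POLR3C are lower in the 3 siPOLR1D-3 libraries than in the 3 siPOLR1D-2 libraries.

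None of the 5 subunits shared by RNA polymerases I, II and III passed with both siRNAs together, with differences of -0.087 to 0.51 in SW480. In HT29, these differences ran from -0.022 to 0.37. The lone call among them was POLR2F with siPOLR1D-2 in SW480. It was at 916, 853 and 815 there, against 544 to 749.5 in SCR and 650.1, 625 and 725 with siPOLR1D-3. Its difference from SCR was 0.48 ± 0.13 with siPOLR1D-2 (adjusted p = 0.048) and 0.11 with siPOLR1D-3. Its HT29 libraries had 213, 250.3, 352 and 317 in SCR, 428 and 327 with siPOLR1D-2, and 376 and 314 with siPOLR1D-3, with overlap between all groups.

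Of the 7 factors of RNA polymerase I, UBTF alone passed in SW480, where 6.73% of all genes passed. UBTF (chr17:44205033-44221626, minus strand) binds along the ribosomal DNA and keeps it in an open, transcribed state. It was at 960.4 to 1729 in SCR with a median of 1281. It was at 1682, 1532 and 1765 with siPOLR1D-2, and at 2146, 2059 and 2122 with siPOLR1D-3. Of the SCR libraries, SCR 1 reached into the siPOLR1D-2 group, while all siPOLR1D-3 libraries were above every SCR library. The pooled difference was 0.57 ± 0.14 (adjusted p = 0.0283, exact permutation p = 0.00649). It was 0.77 on the second side (adjusted p = 0.00633) and 0.25 on the first (adjusted p = 0.730), where no gene passed. The call was lost without SCR 3, SCR 4, SCR 6, siPOLR1D-2 3 or any of the 3 siPOLR1D-3 libraries, with adjusted p between 0.0502 and 0.0657. In HT29, UBTF was at 926, 1199, 1473 and 1487 in SCR, at 1270.4 and 1544 with siPOLR1D-2, and at 1483 and 1499.9 with siPOLR1D-3, an estimate of 0.21 (adjusted p = 0.620) from groups that overlapped. The TAF1A to TAF1D subunits of the promoter factor SL1, RRN3, which recruits the polymerase, and the terminator TTF1 had differences between -0.21 and 0.33 in SW480. RRN3 is also listed as 2 equal rows and has pseudogene copies, between which its reads could be split.

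Of the 10 factors of RNA polymerase III, BRF1 passed in SW480, where 6.73% of all genes passed. BRF1 (chr14:105209286-105315589, minus strand) is a part of TFIIIB, which positions the polymerase on transfer RNA and 5S genes. It was at 418 to 522 in SCR, with a median of 431. It was at 641, 595 and 505 with siPOLR1D-2, and at 624, 598 and 638 with siPOLR1D-3. The siPOLR1D-2 3 library lay within the SCR range and the other 5 silenced libraries above it. The difference was 0.42 ± 0.10 (adjusted p = 0.0257, exact permutation p = 0.00433). It lost the call without SCR 3, SCR 6 or any of the siPOLR1D-3 libraries, with adjusted p between 0.0501 and 0.0603. It was 0.53 on the first side (adjusted p = 0.414), where no gene passed, and 0.34 on the second (adjusted p = 0.131). In HT29, BRF1 was at 255, 227, 273 and 239 in SCR, at 338 and 243 with siPOLR1D-2, and at 252 and 276 with siPOLR1D-3, so that the groups overlapped (0.15, adjusted p = 0.700). BRF1 shares exonic bases with PACS2 and BTBD6 on the opposite strand, which were at 0.32 (adjusted p = 0.0631) and 0.24 (adjusted p = 0.191) in SW480. BDP1, another part of TFIIIB, was at -0.42 ± 0.15 in SW480 (unadjusted p = 0.0148 by limma, adjusted p = 0.111). It was listed as 3 unlike rows that were summed, at 965 to 1940, 942 to 2010 and 1490 to 3960 in SW480. In HT29 these rows were at 13 to 54.9, 22.4 to 48.1 and 3350 to 5410.

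GTF3A is TFIIIA, the factor that binds inside the 5S genes. It lies at chr13:27424544-27435823, on the same arm as POLR1D. In SW480, it was at 2189 to 4019 in SCR with a median of 2719.9. With siPOLR1D-2 it was at 4652, 3863 and 4093, and with siPOLR1D-3 at 2827, 3615 and 3369. The pooled difference of 0.40 ± 0.15 did not pass (adjusted p = 0.116), but it did without SCR 1 (0.50, adjusted p = 0.0284). With siPOLR1D-2 alone GTF3A rose by 0.58 ± 0.16 on the log2 scale (adjusted p = 0.0422), a call lost when any library other than SCR 1 was left out. In HT29, SCR libraries had 5951, 5607, 5980.5 and 5799, against 6059 and 6193 with siPOLR1D-2 and 6140.3 and 6194 with siPOLR1D-3. The silenced libraries were all above SCR, by 0.076 on the log2 scale (95% interval from -0.11 to 0.26, exact permutation p = 0.0286, adjusted p = 0.728 by limma).

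Among the subunits of TFIIIC, which recognizes the internal promoters of transfer RNA genes, GTF3C6 rose with siPOLR1D-2 in SW480. It was at 895, 770.5 and 958 there, against 561 to 697 in SCR and 618, 686 and 701 with siPOLR1D-3. Its difference from SCR was 0.42 ± 0.11 with siPOLR1D-2 (adjusted p = 0.0371) and 0.041 with siPOLR1D-3. In HT29, it was at 535, 443, 500.04 and 443 in SCR, at 514 and 474 with siPOLR1D-2, and at 405 and 399 with siPOLR1D-3, a pooled difference of -0.10 (adjusted p = 0.765). The subunits GTF3C1 to GTF3C5 had pooled differences from -0.087 to 0.20 in SW480. MAF1, which holds RNA polymerase III back when nutrients are short, did not pass with both siRNAs pooled, at 0.039 in SW480 (95% interval from -0.31 to 0.38) and -0.13 in HT29. Its sign turned with the setting in both lines. In HT29, MAF1 was at 1638, 930.1, 882 and 885 in SCR, at 991 and 879 with siPOLR1D-2, and at 994 and 959 with siPOLR1D-3. Without SCR 1, the highest of them, the difference was 0.087.

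The 2 siRNAs were then compared in SW480. With siPOLR1D-2, 7 members passed against SCR, 6 higher and 1, the silenced POLR1D, lower, where 8.16% of all genes passed. They were POLR1D, POLR3E, CD3EAP, POLR3K, GTF3A, POLR2F and GTF3C6. POLR3K was at 0.76 ± 0.21 (adjusted p = 0.0477) and CD3EAP at 0.76 ± 0.20 (adjusted p = 0.0406). With siPOLR1D-3, 7 members passed as well, 4 higher and 3, with the silenced POLR1D among them, lower, where 6.6% of all genes passed. They were POLR1D, POLR3E, POLR1A, UBTF, BRF1, POLR3D and POLR3C. POLR1D was at -0.99 with siPOLR1D-2 and at -1.08 with siPOLR1D-3. Both comparisons share the SCR libraries. The calls outside POLR1D and POLR3E were fragile for siPOLR1D-2, with 2 members left without SCR 4, SCR 5, SCR 6, siPOLR1D-2 1, siPOLR1D-2 3 or any siPOLR1D-3 library, and 3 left without SCR 3 or siPOLR1D-2 2. For siPOLR1D-3, 1 member, POLR1D, was left without siPOLR1D-3 1 or siPOLR1D-3 3, and 3 were left without siPOLR1D-3 2. The share of all genes left in the same fits is not given here.

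Directly against each other, siPOLR1D-3 gave 2 members lower than siPOLR1D-2, POLR3C and MAF1, where 3.32% of all genes passed. MAF1 was at 968.5, 1027 and 1047 with siPOLR1D-2 and at 681, 598 and 635 with siPOLR1D-3. The SCR libraries lay between these groups, at 694 to 981, with SCR 2 above the lowest siPOLR1D-2 library. The difference was -0.67 ± 0.14 (adjusted p = 0.0251). POLR3C, part of the trimer that opens the promoter, was at 1125, 835 and 864 with siPOLR1D-2, at 567, 555 and 513 with siPOLR1D-3, and at 644 to 956 in SCR. Its difference was -0.78 ± 0.18 between the siRNAs (adjusted p = 0.0364), and -0.56 ± 0.15 between siPOLR1D-3 and SCR (adjusted p = 0.0474). The latter call was lost without SCR 2, SCR 3, SCR 5, SCR 6, siPOLR1D-2 2 or any siPOLR1D-3 library. In HT29, POLR3C was at 900.2, 799, 508 and 569 in SCR, at 633 and 480.4 with siPOLR1D-2, and at 435 and 459 with siPOLR1D-3, where both siPOLR1D-3 libraries and 1 of the siPOLR1D-2 libraries lay below every SCR library. The difference with siPOLR1D-3 was -0.60 ± 0.25 (unadjusted p = 0.0437 by limma, adjusted p = 0.623).

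The calls for MAF1 and POLR3C were lost with the side of the libraries as a covariate. MAF1 was then at -0.60 (adjusted p = 0.0706, limma) and POLR3C at -0.70 (adjusted p = 0.101), against -0.67 and -0.78 without the covariate. Within the second side, where siPOLR1D-2 3 is the lone library of its group and is assumed to vary like the others, they were at -0.72 (adjusted p = 0.0141) and -0.67 (adjusted p = 0.0337). Neither was called without siPOLR1D-2 1, siPOLR1D-2 2 or any siPOLR1D-3 library, and POLR3C was not called without SCR 5 or SCR 6. As a whole, 32 of the 41 members were lower with siPOLR1D-3 than with siPOLR1D-2, with a median of -0.24 against 0.0030 over all genes. The SCR libraries themselves showed a like tilt between sides, with 33 members higher in SCR 1 to 3 than in SCR 4 to 6 and a median of 0.17 against -0.0071 over all genes. With the side as a covariate, 26 members were lower with siPOLR1D-3, at a median of -0.092. Within the second side alone, 27 were lower, at a median of -0.21.

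**Figure D4:**
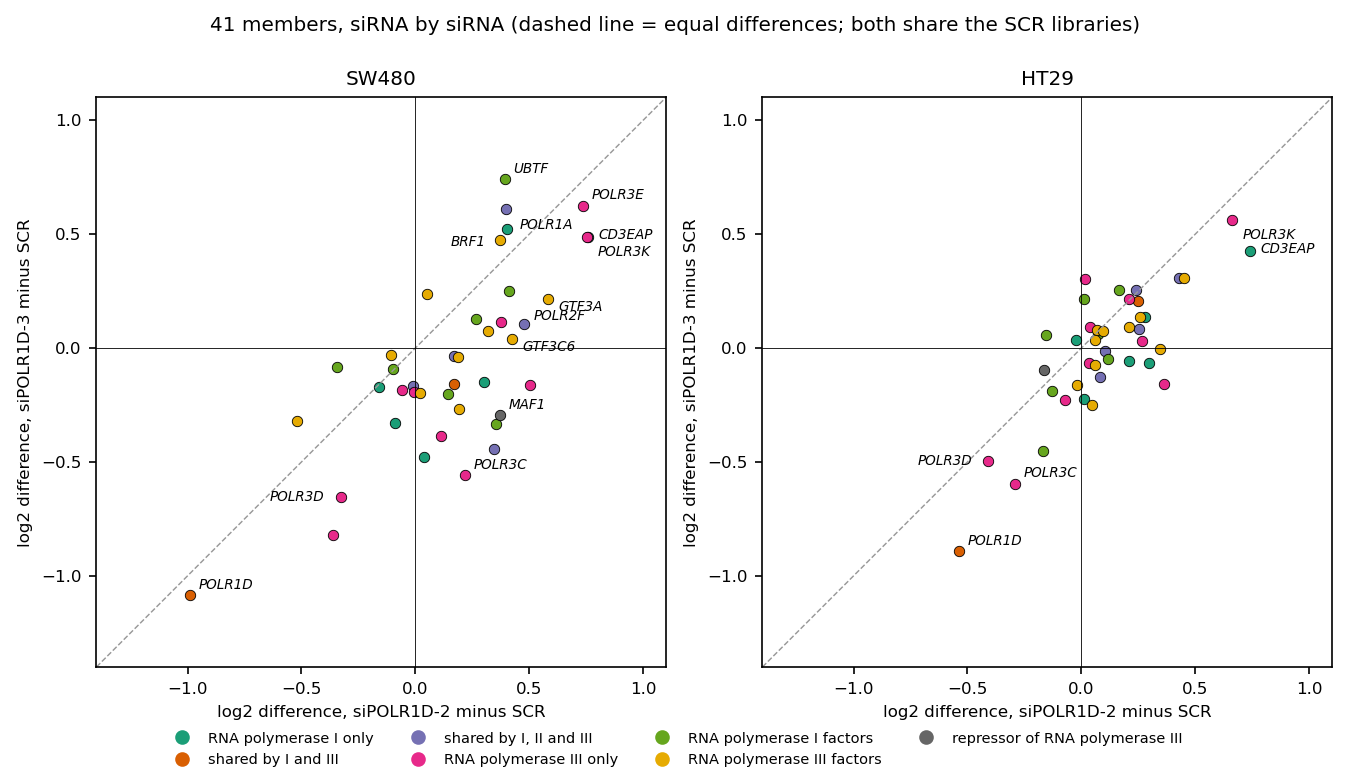
Log2 difference from SCR with siPOLR1D-2 (horizontal) and siPOLR1D-3 (vertical) for the 41 members in SW480 (left) and HT29 (right), coloured by role. Names mark members called in SW480 with either siRNA or between them, and in HT29 5 of these. In SW480, POLR1D lies at -0.99 and -1.08, POLR3E at 0.74 and 0.62, and MAF1 and POLR3C lie to the right of the dashed line of equal differences.

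In HT29, no member passed with siPOLR1D-2, with siPOLR1D-3 or between the siRNAs, as for all genes (0% in each, by limma). At an unadjusted p under 0.05 there were 3, 2 and 1 of the 41 members, where 4.36%, 7.77% and 1.56% of all genes were. These were CD3EAP, GTF3C4 and POLR1D with siPOLR1D-2, POLR1D and POLR3C with siPOLR1D-3, and POLR1B between them. For POLR3E, with 1366, 1244, 1291 and 1279 in SCR, 1732 and 1288 with siPOLR1D-2, and 1498 and 1502 with siPOLR1D-3, the pooled difference was 0.21 (95% interval from -0.039 to 0.46).

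The response of a member was compared between the lines as an interaction over all 20 libraries. None of the 41 members passed (0.0393% of 12724 genes did), and 1 of the 41 members was at an unadjusted p under 0.05, as were 8.58% of all genes. This was POLR3E, with a rise larger in SW480 by 0.47 on the log2 scale (95% interval from 0.16 to 0.79, unadjusted p = 0.00526 by limma, adjusted p = 0.328). Members at an unadjusted p under 0.05 with the same direction in both lines were POLR1D, CD3EAP and POLR3K. This, with the silenced gene POLR1D counted, was 7.32% of the 41 members, against 4.09% of all genes tested in both lines. Only CD3EAP and POLR3K are partners of the silenced gene. The direction was shared by 28 of 41 members (68.3%), and by 65% of all genes.

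Silenced and SCR libraries did not overlap for 4 members in SW480 (POLR3E and POLR1A above, POLR1D and POLR3D below), where 4.57% of all genes did not overlap. In HT29 this held for 2 members, POLR1D below and GTF3A above, where 6.89% of all genes did not overlap. POLR1D, the silenced gene, is in both counts.

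A wider list of 17 genes of these pathways was then examined. With both siRNAs, DDX21, a helicase that acts in ribosomal RNA transcription and processing, was the lone call in SW480, at -0.39 ± 0.10 (adjusted p = 0.0374). This was 5.88% of the 17 genes, where 6.73% of all genes passed. There was none in HT29, as for all genes (0%). MYC, an activator of both polymerases, fell with siPOLR1D-3 alone, by 0.73 on the log2 scale (adjusted p = 0.0108), from 3998 to 6235 in SCR to 2795 to 3613. With siPOLR1D-3, 6.6% of all genes passed, and its SW480 libraries were all on the second side. Of 7 subunits found in RNA polymerase II alone, none passed in either line with both siRNAs. POLR2D was lower with siPOLR1D-3 in SW480, at 245 to 295 against 443 to 579.9 in SCR (-0.93, adjusted p = 0.00253).

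The promoters of 34 members were found in RefSeq (GRCh38.p14), as 48 stretches from 250 bases before to 50 after a transcription start. POLR3E, CD3EAP and POLR1A, subunits that rose, and POLR1D, which was silenced, are shown from 150 bases before to 25 after the start. Capitals mark the E-box CACGTG in POLR3E and CD3EAP, the NRF1 motif in POLR1A and the CCAAT box in POLR1D, each on either strand.
POLR3E (chr16:22297259-22297433, plus strand): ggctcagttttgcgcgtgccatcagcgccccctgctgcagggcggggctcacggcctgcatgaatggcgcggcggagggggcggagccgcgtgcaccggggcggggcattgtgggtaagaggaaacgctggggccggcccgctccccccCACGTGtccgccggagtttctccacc
CD3EAP (chr19:45406494-45406668, plus strand): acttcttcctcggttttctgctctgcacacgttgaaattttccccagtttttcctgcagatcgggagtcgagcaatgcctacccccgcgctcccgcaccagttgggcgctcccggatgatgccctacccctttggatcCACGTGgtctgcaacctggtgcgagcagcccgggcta
POLR1A (chr2:86105862-86106036, minus strand): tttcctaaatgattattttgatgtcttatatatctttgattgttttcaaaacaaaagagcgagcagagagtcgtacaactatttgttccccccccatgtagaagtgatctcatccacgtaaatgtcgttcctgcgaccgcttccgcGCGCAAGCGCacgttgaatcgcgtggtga
POLR1D (chr13:27620593-27620767, plus strand): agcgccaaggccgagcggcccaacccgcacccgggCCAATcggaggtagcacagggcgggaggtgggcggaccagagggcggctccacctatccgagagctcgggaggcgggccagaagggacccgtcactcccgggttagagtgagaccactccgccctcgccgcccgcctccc

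The E-box began 1 base before the start of POLR3E and 12 bases before that of CD3EAP, and the NRF1 motif 4 bases before that of POLR1A. An E-box stood in 7 of the 48 member promoters (14.6%) and in 7.26% of all 35116 promoters of this length. The other 5 members with one, GTF3C2, GTF3C4, GTF3C6, POLR3A and POLR3C, did not pass with both siRNAs. The ETS motif CCGGAAG was found in 43.8% of member promoters and 10.3% of all, and the NRF1 motif in 22.9% and 5.78%. The CCAAT box was found in 31.2% and 34.6%, the cyclic AMP response element TGACGTCA in 6.25% and 1.85%, and the TATA box TATAAA in 2.08% and 11.5%. The amino acid response element TGATGNAA was in none of the member promoters and in 3.62% of all. UBTF and a second start of POLR1D held none of these letters. Promoters of 1 gene can overlap, and a match is a description of the sequence.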

How the data were processed

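The deposited values of the 20 libraries are signal values. The authors captured exonic RNA (TruSeq RNA Exome). Paired-end reads were quantified by kallisto 0.44.0, and the authors normalized the estimated read counts with DESeq2 1.24.0. The build named is hg38, and the transcript index is not given in the sources used here. The values were checked to be centred within each cell line and not to be whole reads (21% to 49.1% of low values were multiples of 1 read within 0.01), so that no count model was used.

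Rows sharing a name were summed. Genes that reached 10 in 4 (HT29) or 6 (SW480) libraries were tested with limma 3.58.1 (R 4.3.3) on log2(value + 1) with a mean-variance trend, which understates changes of low genes, and p values were adjusted by Benjamini-Hochberg over all genes. Groups were taken from the labels. Single members were compared by exact permutation tests, 2-sided. The fits were tested on simulated data. Differences are on the log2 scale, ± SE.

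Members and lists were chosen with earlier results of these data known. Values by library are given for POLR1D, POLR1C, GTF3A, MAF1 and every member that passed in a comparison. For these, the SCR libraries of SW480 are given as a range only, in most cases with a median. POLR3A, POLR3B, POLR3G, POLR3GL and BDP1 were named after their values were seen. Gene positions are from GENCODE release 29 (GRCh38). Libraries with the same number were not taken as pairs. Alternatives were another scaling, pseudocount, filter, variance model, covariate or set of libraries. A result of the wider list of pathway genes is not reported here.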

Additional observations from a re-analysis of the deposited data

Results flagged for a closer look

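Single libraries stood far from the others of their group in 5 of 56 groups examined for 14 members (gap over range above the 95% limit of Dixon's test, which chance alone exceeds in about 1 of 20 groups). BRF1 was at 505 in siPOLR1D-2 3 of SW480, against 595 to 641 in the other silenced libraries. CD3EAP was at 1873 in siPOLR1D-2 1 of HT29, against 1175 to 1264 in the other silenced libraries. GTF3A was at 4019 in SCR 1 of SW480, against 2189 to 2801 in the other SCR libraries. MAF1 was at 1638 in SCR 1 of HT29, against 882 to 930.1 in the other SCR libraries, and at 981 in SCR 2 of SW480, against 694 to 783.

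The effects of the 2 siRNAs in SW480 differed from each other for MAF1, by -0.67 on the log2 scale, and for POLR3C, by -0.78 (siPOLR1D-3 minus siPOLR1D-2, limma). With the side of the libraries, partly confounded with the siRNA, as a covariate, neither was called (adjusted p = 0.0706 and 0.101, limma). No member differed between the cell lines after adjustment.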

How the results depend on the processing

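Each result was recomputed under those of 16 alternatives that apply to it, and with each library of its comparison left out. The values are not whole reads, so that no counting interval was derived. Of 807 values of single members, 598 kept direction and call, 183 lost the call, 11 gained it and 15 changed sign, all of these for POLR1C or MAF1, whose differences are near 0. The median of all genes moved by over 0.1 once, to 0.12 for siPOLR1D-3 with upper quartile scaling.

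Correlations between same-numbered libraries, in their deviations from group means, ran from -0.17 to 0.038 in HT29. They ran from -0.60 to 0.39 in SW480, with 2 of 9 pairs over 0.1. These correlations cannot exclude a pairing. With 2 libraries per siRNA in HT29 the deviations mirror each other, and some SW480 pairs lie on different sides. With the replicate block, the number of members called in SW480 was 0 with both siRNAs, 0 with siPOLR1D-2, 1 with siPOLR1D-3 and 0 between the siRNAs. The shares of all genes called in these fits were 0%, 0.133%, 4.85% and 0.26%. SCR 4 to 6 share their number with no silenced library and so add nothing to the estimates against SCR. In HT29 it was 2 with both siRNAs (5.54% of all genes). With the replicate block POLR1D was at -1.17 in SW480 (not called) and at -0.80 in HT29 (called), POLR1C turned to -0.083 and MAF1 to -0.056 in SW480.

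Array weights gave 17 members called with siPOLR1D-2, 13 with siPOLR1D-3 and 14 between the siRNAs in SW480 (26.9%, 25.2% and 30.9% of all genes), 1 with siPOLR1D-3 in HT29 and 1 (UBTF) between the lines, with MAF1 turned to 0.060 in HT29 and -0.14 in SW480. With no filter, 2 were called with siPOLR1D-2 (3.65% of all genes) and 1 between the siRNAs (1.2%). With no trend, these counts were 2 (6.59%) and 1 (1.95%). Fitting siPOLR1D-2 with SCR alone gave 2 (3.68%). With the side as a covariate 0 were called between the siRNAs (1.42% of all genes). On the second side of SW480 alone, siPOLR1D-2 has a lone library, so counts of calls with siPOLR1D-2 or between the siRNAs are not given. With both siRNAs on that side, 7 members passed the exact permutation test against 11, and MAF1 was at -0.022. On the first side alone, with 5 libraries, 0 were called with both siRNAs or siPOLR1D-2 (0% of all genes) and POLR1D was at -1.06 (not called). The cause of these changes was not tested.

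With 1 library left out, the members called in SW480 ranged from 3 to 10 with both siRNAs, from 2 to 10 with siPOLR1D-2, from 1 to 8 with siPOLR1D-3 and from 0 to 3 between the siRNAs, and 0 in HT29 and between the lines. Shares of all genes are not given beside these ranges, so they describe how stable the calls were. Members passing the permutation test ranged from 10 to 13 in SW480 and from 1 to 5 in HT29, against 2. The permutation test was run on members only, so no share of all genes stands beside its counts here or above. POLR1D ranged from -1.11 to -0.98 and from -0.78 to -0.63. Sign changes ran from -0.031 to 0.079 for POLR1C in SW480, from -0.037 to 0.12 for MAF1 in SW480 and from -0.21 to 0.087 for MAF1 in HT29. The block changed no other direction.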
